A study of Homo sapiens with 40 samples.

Results

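The genes described here encode the proteins of the cytosolic ribosome. Members were the rows of the count table whose identifier belongs to a protein-coding gene with the symbol of a large-subunit (RPL), small-subunit (RPS, RPSA) or P-stalk (RPLP0, RPLP1, RPLP2) protein, without the S6 kinases and without the 2 Y-linked copies. This rule found 84 of the 19962 genes in the table, made up of 43 large-subunit genes, 31 small-subunit genes, 3 P-stalk genes and 7 near copies of other members (RPL3L, RPL7L1, RPL10L, RPL22L1, RPL26L1, RPL39L and RPS27L). The symbols alone chose them, with no measured value.

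The libraries hold poly(A) RNA from RKO, an established human colorectal carcinoma line, in derivatives with Dox-inducible Cas9, GFP and a pair of guide RNAs marked by BFP. The guides of the 3 derivatives cut IGF2BP2, IGF2BP3 or, as a control, the non-coding locus AAVS1 (lines sgIGF2BP2, sgIGF2BP3 and sgAAVS1), and each derivative was a sorted pool of BFP-positive cells, not a single clone. For induction of Cas9, cells received doxycycline (Dox) at 250 ng/mL over 72 hours, and the uninduced controls are labelled DMSO. A pool of siRNAs to the line's own target, or a nontargeting siRNA (siControl), was transfected at 75 nM over 48 hours, and the labels of these samples name no Dox. All 40 libraries, DMSO included, came from cells given 4-thiouridine (s4U), a label for new RNA, at 250 µM for 2 hours. The 10 groups of 4 libraries were DMSO and Dox in sgAAVS1 cells, and DMSO, Dox, siControl and the siRNA against the line's own guide target in sgIGF2BP2 and sgIGF2BP3 cells. Each library was 1 well, and nothing in the labels says that the wells came from separate cultures or days, so p-values measure the spread between these wells. Counts cover labelled and unlabelled RNA of a gene alike. In bulk RNA a lower level in every cell and a loss of the cells that express more cannot be told apart.

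A ribosome has a small subunit, which reads the mRNA, and a large subunit, which joins amino acids and carries the P stalk, the arm that recruits elongation factors. Cells make ribosomal proteins in near-equal amounts, and most of their mRNAs begin with a C followed by a run of pyrimidines, the 5′ terminal oligopyrimidine (TOP) tract, through which LARP1 and the mTOR pathway adjust their translation and stability together. IGF2BP2 and IGF2BP3 are RNA-binding proteins that act on the stability and translation of many mRNAs.

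The members were among the most abundant mRNAs of these cells. Of the 84, 80 passed the filter on low counts that left 11428 genes in all. Their median level was 907 CPM (a library's counts scaled to a common total) against 32.0 CPM for all genes tested, and 67 of the 80 lay in the top 5% of tested genes. Per kilobase of transcript, the median was 1020 CPM per kb. RPL8 of the large subunit stood highest at 4754 CPM per kb, followed by RPS18 at 3046 and RPL7A at 2963 CPM per kb. The lowest were RPS10 at 7.12, RPS27L at 7.20 and RPL17 at 19.2 CPM per kb, with RPL36A at 22.7. RPS10, RPL17 and RPL36A had median counts of 61, 168.5 and 134 per library. Each of these 3 shares its strand and bases with an annotated read-through gene (RPS10-NUDT3, RPL17-C18orf32 and RPL36A-HNRNPH2) whose counts were at most 2, and whether shared reads were given to either gene was not tested. The value of RPS27L rests on an annotated transcript of 6434 bases, which may not be the form these cells make.

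Of the 4 genes that did not pass the filter, 3 are near copies. RPL10L, a retrocopy of RPL10 known from the testis, had 0 counts in every library, which allows up to 0.00533 CPM over the 40 libraries (3 counts, counting error only). RPL39L had 1 count in all, and RPL3L, a muscle form of RPL3, had 5 counts in 4 libraries. Of all members, 77 have at least 1 annotated pseudogene named after them (median 8.5, up to 91), and 17 overlap a gene on the opposite strand. The handling of shared reads and of strand is not given in the sources used here, so levels of such genes are less certain than differences between libraries.

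The tract at the start of these mRNAs is their best known shared control element, so start-site windows are shown for members that results below turn on. Of the 84 members, 67 had an entry in the RefSeq promoter table (GRCh38.p14). A run of at least 7 C or T that reaches within 5 bases of an annotated start was present in 52 of the 67 (77.6%), against 18.6% of the 27305 genes in the table. The letters CCGGAAG, the core that ETS-family factors such as GABP bind, were found on either strand within the 300 bases around the start in 35.8% of members and 12.2% of genes. The letters AAGATGGC, the core of the YY1 motif, were found in 10.4% of members and 3.52% of genes. Each window holds 12 bases before the annotated start and 18 from it, 5′ to 3′ on the gene's own strand. Capitals mark the run of C and T that reaches the start.
RPL41 (chr12:56116621-56116650, plus strand): aacttcgCCTTTCTCTCggccttagcgcca
RPS25 (chr11:119018326-119018355, minus strand): gagcagcgCTTCCTTTTTgtccgacatctt
RPL38 (chr17:74203666-74203695, plus strand): ggaagtctcgTTCTTTTTCgtccttttccc
RPL35A (chr3:197950178-197950207, plus strand): cggggcctcgTCCTTCTCTTaccgccatct
RPS27 (chr1:153990750-153990779, plus strand): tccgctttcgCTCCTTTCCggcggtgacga
RPS27L (chr15:63157460-63157489, minus strand): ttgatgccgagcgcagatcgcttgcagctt
RPL22 (chr1:6199578-6199607, minus strand): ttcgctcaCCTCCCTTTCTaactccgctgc
RPL22L1 (chr3:170870178-170870207, minus strand): ggccgtagCTTCCTCTCTgctctcgcggcc
RPL26 (chr17:8383176-8383205, minus strand): cagcgtgtagTTCTCTTCCCTTTTgcggcc
RPL26L1 (chr5:172958717-172958746, plus strand): cttccaggggtcggcgaacgaaacgcggag
RPL7L1 (chr6:42879604-42879633, plus strand): aagtgcggcgccgtagctaggagcggacgc
RPL22L1 kept a run of 10 like its partner RPL22 (11), whereas the copies RPS27L, RPL26L1 and RPL7L1 had no run longer than 2 near their listed starts. A match is a description of these letters only.

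Total counts per library ranged from 1.00e+07 to 2.48e+07. The targeted mRNAs followed the labels: Dox left 39.7% of IGF2BP2 and 31.2% of IGF2BP3 mRNA in the line with the matching guides, and the siRNAs left 27.9% and 14.6%. Of the colon epithelial markers, EPCAM (12.3 to 16.0 CPM), KRT8, KRT18 and CDX2 were present, and CDH1, KRT20 and VIL1 had at most 2 counts in any library. The mesenchymal markers VIM and ZEB1 were present at 26.1 to 38.9 and 164 to 233 CPM. Fibroblast, leukocyte and endothelial markers lay at or near 0, with CD68 highest at up to 3.52 CPM. In 2 libraries the members stood apart from their group. They were picked after seeing the data, and the screen for outliers described below flagged neither share. The second replicate of sgIGF2BP2 Dox had 8.88% of its counts in members, with 5.86% in mitochondrial mRNAs, the lowest of all libraries. The third replicate of sgIGF2BP2 siIGF2BP2 had 8.84%, against 7.70% to 7.93% in the other 3 of its group. Calls of members and counts of gene lists that rest on these libraries are given with and without them.

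Members held 7.56% to 8.88% of all counts. In the 16 siRNA libraries the share ran from 7.56% to 8.84% with a median of 7.71%, and in the 24 DMSO and Dox libraries from 7.93% to 8.88% with a median of 8.18%. In sgIGF2BP3 cells the share was 7.99%, 7.95%, 8.09% and 8.03% with DMSO and 7.56%, 7.56%, 7.65% and 7.59% with siControl. All 4 siControl libraries lay below all 4 DMSO libraries. In sgIGF2BP2 cells it was 8.39%, 8.33%, 8.29% and 8.18% with DMSO and 7.61%, 7.71%, 7.79% and 7.95% with siControl, again without overlap. Between DMSO and Dox the shares overlapped in all 3 lines.

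As a group the members varied little. The highest group mean of a member exceeded its lowest by a median of 1.13 times, against 1.24 times for all genes tested, and only RPS27L (1.77) and RPL41 (1.54) reached 1.5. The median SD of log2 CPM within groups was 0.063 for members and 0.093 for all genes. Of the 80 members tested, 60 passed the test in none of the 5 comparisons of Dox with DMSO or of a targeting siRNA with siControl. That is 75% of the members, against 45.5% of all genes tested. The 1 member that was higher in all 5 was RPS27L, where 2 of 11428 genes were, RPS27L included. A member is called here at a Benjamini-Hochberg adjusted p under 0.05 over all genes, in edgeR's quasi-likelihood test.

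**Figure D1:**
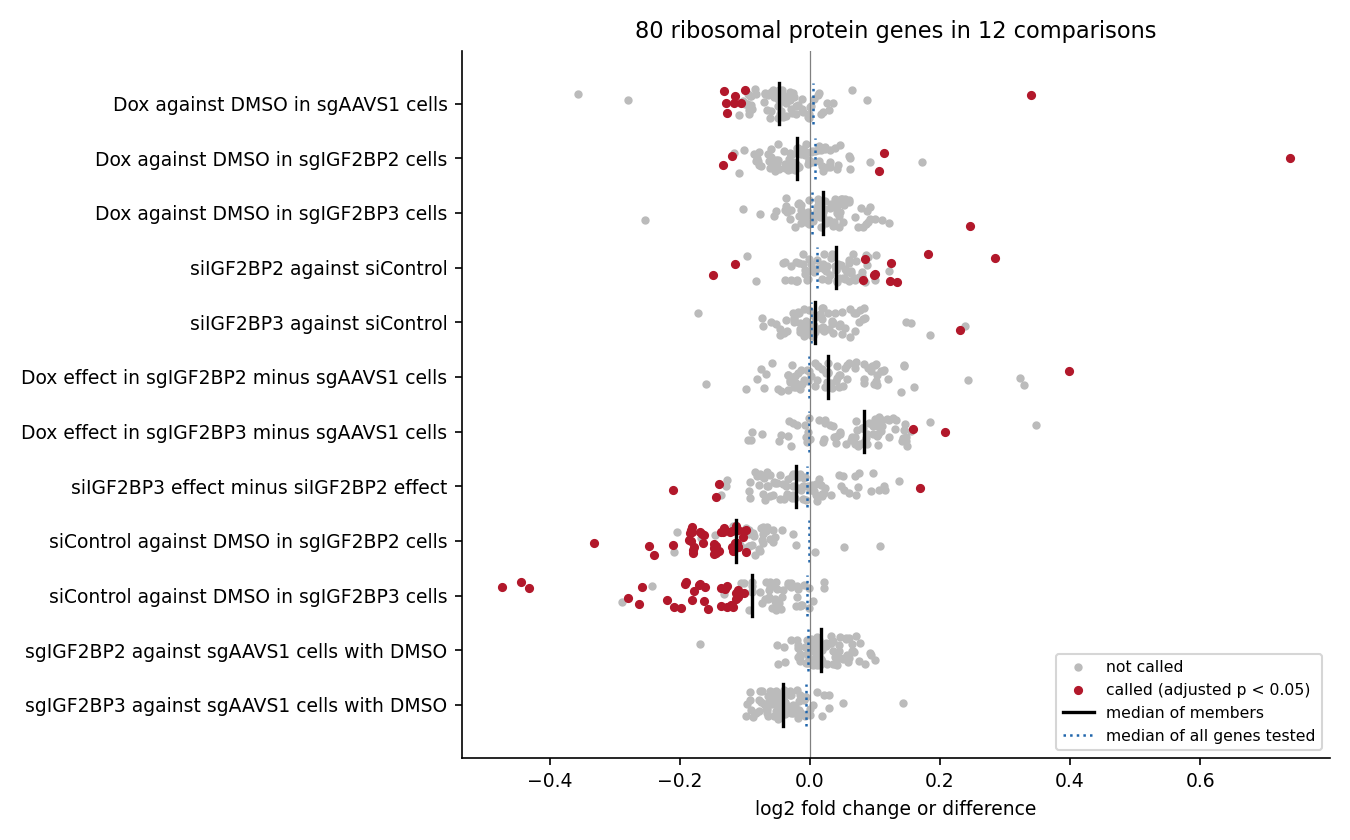
The log2 fold change (or difference of log2 fold changes) of the 80 tested members on the horizontal axis, in 12 comparisons (rows). Each point is a gene, red where called; black bars are the members' medians and dotted blue bars the medians of all genes tested. The members lie left of 0 with siControl against DMSO (medians −0.11 and −0.089), and RPS27L is the rightmost point at 0.74 in Dox against DMSO in sgIGF2BP2 cells.

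The largest shift of the group separated siControl from DMSO, that is, transfected cells with a non-targeting siRNA from untransfected uninduced cells. In sgIGF2BP2 cells 44 of 80 members were lower and 0 were higher, where 8.16% of all genes were called lower and 10.2% higher. In sgIGF2BP3 cells 31 were lower and 0 higher, where 8.54% and 10.9% of all genes were called. The median member changed by −0.11 and −0.089 on the log2 scale, against −0.0021 and −0.0043 for all genes. In each line 77 of 80 members lay below 0. The 2 lines share no library here: 27 members were lower in both, which is 61.4% of the calls in sgIGF2BP2 cells and 87.1% of those in sgIGF2BP3 cells. The same overlap over all genes was not counted, so these shares describe the members only. In 57 members of sgIGF2BP2 cells and 39 of sgIGF2BP3 cells the siControl and DMSO libraries did not overlap, against 20.3% and 21.9% of all genes. The shifts were small: 1 and 6 members changed by 1.2-fold or more. Tested against a minimum change of 1.2-fold, edgeR called 0 members in sgIGF2BP2 cells and 1 in sgIGF2BP3 cells. The counts over all genes in that test are not given here. These groups differed in transfection, siRNA and DMSO together, whose parts cannot be told apart. They also share DMSO libraries with the Dox comparisons and siControl libraries with the siRNA comparisons.

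Both subunits took part. In sgIGF2BP2 cells 23 of 43 large-subunit, 18 of 30 small-subunit and 1 of 3 P-stalk genes were lower, and in sgIGF2BP3 cells 16, 13 and 1. RPL41 (ENSG00000229117, chromosome 12, 56116586 to 56117943) encodes a very small basic protein of the large subunit. In sgIGF2BP3 cells it stood at 154, 162, 169 and 153 CPM with DMSO and at 106, 101, 133 and 120 CPM with siControl. All siControl libraries were below all DMSO libraries, and edgeR put the change at −0.47 on the log2 scale (SE 0.066, adjusted p = 5.96e-08). In sgIGF2BP2 cells RPL41 went from 196, 174, 175 and 166 CPM to 132, 135, 151 and 147 CPM, again without overlap (−0.33 on the log2 scale with SE 0.064, adjusted p = 6.39e-05 in edgeR). With the targeting siRNAs RPL41 stood at 123 to 157 CPM.

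RPS4X (ENSG00000198034, X chromosome), the X-linked form of a small-subunit protein, was among the members lower in both lines. In sgIGF2BP2 cells its levels were 2171, 2109, 2147 and 2141 CPM with DMSO and 1830, 1834, 1850 and 1892 CPM with siControl. In sgIGF2BP3 cells they were 2029, 2041, 2044 and 2069 CPM against 1688, 1755, 1853 and 1787 CPM. No siControl library reached a DMSO library in either line, and the log2 fold change was −0.21 in both (edgeR adjusted p = 2.27e-06 and 2.44e-06). RPS28, a small-subunit protein near the mRNA exit, fell by 0.25 and 0.26 on the log2 scale. RPS25, known for its part in internal initiation, fell by 0.24 and 0.26, and RPS29 by 0.18 and 0.28. RPS25 overlaps CCDC84 and TRAPPC4, and RPS28 overlaps KANK3, on the opposite strand. RPL17 was called in sgIGF2BP3 cells, where it fell by 0.43 (SE 0.10, edgeR adjusted p = 0.00115) from 13.3, 15.0, 13.3 and 12.6 CPM to 11.8, 8.80, 11.2 and 8.99 CPM. RPS10, another low member, fell by 0.44 there (adjusted p = 0.0328), with overlapping libraries.

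Transcript length moved with this shift. Members are short, with a median transcript of 822.5 bases against 2939 for all genes tested, and 51 of the 80 are under 1000 bases, against 5.77% of all genes. Over all 11423 genes with a length, the rank correlation of length with log2 fold change was 0.21 in sgIGF2BP2 and 0.10 in sgIGF2BP3 cells, and over the 80 members it was 0.19 and 0.26 (Spearman's rho, across genes, which are not independent replicates). The 608 other genes under 1000 bases had medians of −0.074 and −0.049, and the 51 members of that length had −0.12 and −0.10. Among genes of 4000 bases or more the 3768 others had medians of 0.028 and 0.0092, and the 3 members had −0.17 and −0.18. These 3 were RPL27A (−0.17 and −0.20), RPL37 (−0.18 and −0.18) and RPS27L (0.11 and −0.065). Each length is that of 1 annotated transcript, which may not be the form these cells make. With an offset for length in the fit, 19 instead of 44 members were lower in sgIGF2BP2 cells and the median was −0.052 instead of −0.11. In sgIGF2BP3 cells the median was −0.052 instead of −0.089. The part of length in the shift was not tested further. Leaving out the first siControl replicate left 27 calls in sgIGF2BP2 cells, and leaving out the second left 20 in sgIGF2BP3 cells. Calls over all genes with the length offset and without these libraries are not given here, so these lower counts describe the members only.

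Members with and without the run at the start were both among those lower. Of the 52 members with a run, 28 were lower in sgIGF2BP2 cells (median −0.12), and of the 14 tested members with an entry but no run, 9 were (median −0.11). In sgIGF2BP3 cells the counts were 22 of 52 (median −0.10) and 5 of 14 (median −0.071). RPS4X (longest run 5) and RPS29 (longest run 2), described above, are among the members without a run of at least 7 at a listed start. This class also holds other members just under the cut, with runs of 6 in RPL12 and RPL32 and of 5 in RPL3 and RPL6.

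RPS27L, a near copy of RPS27 and known as a target that p53 switches on, was the 1 member with a rise in every Dox and siRNA comparison (ENSG00000185088, chromosome 15, 63125872 to 63158021). In sgIGF2BP2 cells it stood at 41.0, 40.1, 39.97 and 39.5 CPM with DMSO and at 64.9, 64.7, 68.7 and 70.0 CPM with Dox. All Dox libraries lay far above all DMSO libraries (0.74 on the log2 scale with SE 0.055, adjusted p = 1.19e-17 in edgeR). In sgAAVS1 cells it went from 40.1, 36.5, 41.5 and 41.2 CPM to 50.6, 46.7, 51.6 and 52.7 CPM, also without overlap. That rise was 0.34 (SE 0.057, edgeR adjusted p = 7.01e-06). In sgIGF2BP3 cells the levels were 36.8, 38.9, 41.2 and 42.6 CPM with DMSO and 50.7, 48.2, 48.0 and 42.4 CPM with Dox. Here 1 Dox library overlapped the DMSO libraries, and the rise was 0.25 (SE 0.057, edgeR adjusted p = 0.00698). The rise in sgIGF2BP2 cells exceeded that in sgAAVS1 cells by 0.40 (SE 0.079, edgeR adjusted p = 0.000425), and RPS27L was the 1 member called in this difference (2 or 3 without sgAAVS1 DMSO replicate 4, sgAAVS1 Dox replicate 2 or sgIGF2BP2 Dox replicate 4), where 6.97% of all genes were called, 4.01% higher and 2.97% lower.

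Both targeting siRNAs also went with more RPS27L than siControl. With siIGF2BP2 it rose from 42.4, 44.8, 43.7 and 42.0 CPM to 48.3, 50.4, 58.3 and 53.3 CPM (0.28 on the log2 scale with SE 0.055, adjusted p = 2.59e-05 in edgeR). With siIGF2BP3 it rose from 35.6, 37.99, 36.6 and 41.7 CPM to 43.6, 47.4, 43.0 and 44.3 CPM (0.23 on the log2 scale with SE 0.058, adjusted p = 0.0140 in edgeR). The libraries did not overlap in either case, and the 2 changes differed by −0.054, with an adjusted p of 0.70. The call with siIGF2BP3 was lost in 3 of the 8 fits without 1 library, those without siControl replicate 1, siControl replicate 3 or siIGF2BP3 replicate 2. The call with Dox in sgIGF2BP3 cells was lost without its first DMSO replicate.

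The list of 10 other genes of the p53 and MDM2 pathway was read beside RPS27L. After Dox, 9 of 10 were higher in sgIGF2BP2 cells (median 0.64), 5 in sgAAVS1 cells (median 0.25) and 4 in sgIGF2BP3 cells (median 0.18), with 0 lower in each. Of all genes 10.0%, 7.25% and 1.64% were called higher in these lines. Without the sgIGF2BP2 Dox library that stands apart the count there was again 9. BTG2, an antiproliferative p53 target, rose by 1.37 in sgIGF2BP2, 0.44 in sgAAVS1 and 0.77 in sgIGF2BP3 cells. With siIGF2BP2 2 were higher and 3 lower, with and without the library that stands apart, where 18.4% of all genes were called in each direction, CDKN1A falling by 0.38 and ZMAT3 by 0.40 while FDXR rose by 0.30. With siIGF2BP3 1 was higher and 1 lower, RRM2B, which fell by 0.19, where 0.936% and 1.40% of all genes were. Whether p53 acted on RPS27L was not tested. RPS27 itself, a zinc-finger protein of the small subunit, was not called after Dox in any line.

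**Figure D2:**
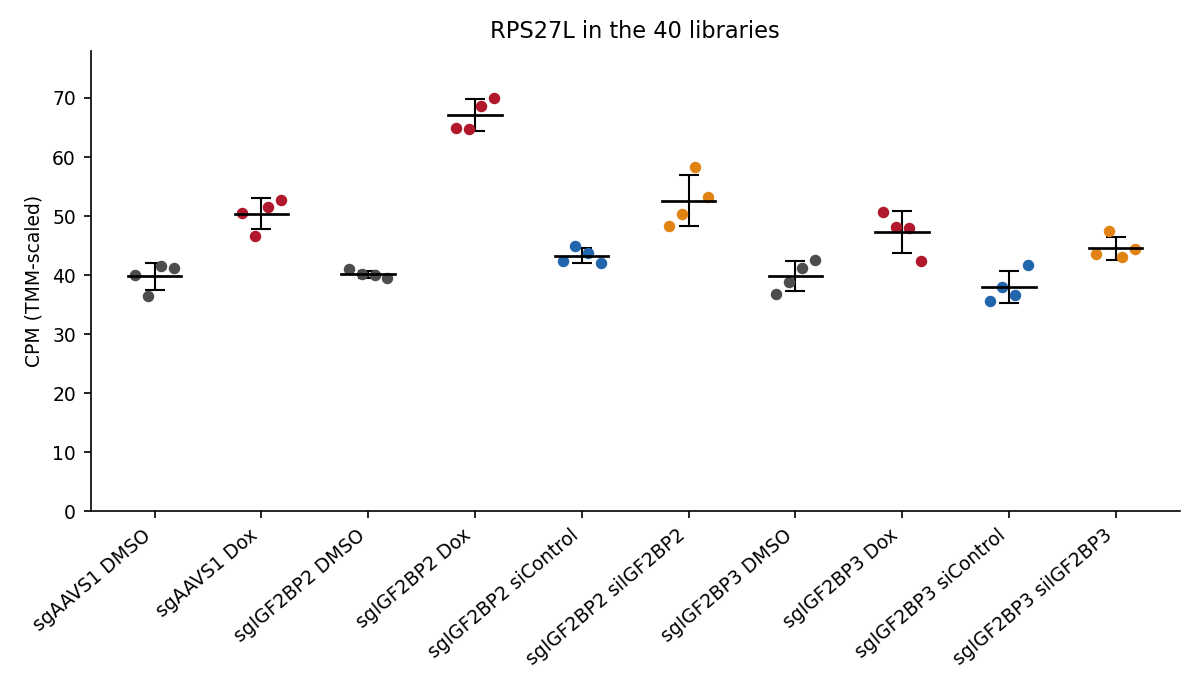
RPS27L in CPM (vertical axis, from 0) in the 40 libraries by group (horizontal axis). Points are libraries (grey DMSO, red Dox, blue siControl, orange siIGF2BP2 or siIGF2BP3), with means and SDs (n = 4); sgIGF2BP2 Dox stands highest at 64.7 to 70.0 CPM.

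Dox in sgAAVS1 cells, the control for Cas9 induction and cutting, came with small falls. The members lower were RPL38, RPL10, RPS15, RPLP0, RPLP1, RPL19 and RPL35, 7 of 80 where 8.68% of all genes were called lower, and RPS27L was the 1 member higher where 7.25% were. In this fit the share of members lower was near that of all genes, and the share higher was below it. The median member was at −0.047 and 68 of 80 were below 0, while the median of all genes was 0.0044. The count moved with the fit. With only the libraries compared 18 of 80 members were lower, where 1002 of 11124 genes were. With an offset for transcript length 14 of 80 were lower, where 1116 of 11428 genes were. RPLP0, the base of the P stalk, was at 2605, 2720, 2645 and 2540 CPM with DMSO and at 2388, 2386, 2479 and 2440 CPM with Dox. The groups did not overlap (−0.12 on the log2 scale with SE 0.035, adjusted p = 0.0129 in edgeR). RPLP1, which binds the stalk as a dimer with RPLP2, was at 1750, 1884, 1760 and 1703 CPM with DMSO and 1625, 1627, 1657 and 1644 CPM with Dox, and fell by 0.11 (adjusted p = 0.0422). RPL10, among the last proteins added to the large subunit, fell by 0.13 (adjusted p = 0.0129). RPL35, near the exit tunnel, fell by 0.099 (adjusted p = 0.0412). The calls of RPLP1 and RPL35 were lost in 7 and 5 of the 8 fits without 1 library, with edgeR adjusted p up to 0.191 and 0.166. Those of RPL10 and RPLP0 were lost in 1, the fit without the second DMSO replicate. The number called ran from 2 without the second DMSO replicate to 13 without the fourth, and was 4, 4 and 3 without the third DMSO, the first Dox and the second Dox replicate.

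RPL38, a large-subunit protein known for its role in translating patterning mRNAs, lies on chromosome 17 at 74203582 to 74210655. That is between SPOP (49598884 to 49678234), a gene whose own mRNA was 36.7 ± 1.48 CPM with DMSO and 11.4 ± 1.22 CPM with Dox (SD, n = 4) in sgAAVS1 cells, and the end of the arm. RPL38 was at 465, 507, 538 and 491 CPM with DMSO and 460, 430, 487 and 450 CPM with Dox. The libraries overlapped, and RPL38 fell by 0.13 (SE 0.038, edgeR adjusted p = 0.00986). The call was lost without the third DMSO or the second Dox replicate, with an adjusted p of up to 0.0923. In the other lines Dox left it at −0.029 and 0.014 (adjusted p = 0.65 and 0.89). The differences of these Dox effects on RPL38 from that in sgAAVS1 cells were not called. Beyond AAVS1 on chromosome 19 lies RPL28, at −0.096 (SE 0.037, edgeR adjusted p = 0.0618) in sgAAVS1 cells. The other lines had 0.024 (sgIGF2BP2) and 0.052 (sgIGF2BP3).

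Dox in sgIGF2BP2 cells called few members. RPS27L, RPL13A and RPS19 were higher, 3 of 80 where 10.0% of all genes were, and RPL35A and RPL6 were lower, 2 of 80 where 10.4% were. That is 5 members called, against 20.4% of all genes. RPL35A, a large-subunit protein mutated in some cases of Diamond-Blackfan anaemia, lies on chromosome 3 at 197949980 to 197956610, between the cut gene IGF2BP2 and the arm's end. It was at 566, 532, 555 and 545 CPM with DMSO and at 483, 502, 506 and 513 CPM with Dox, without overlap (−0.13 on the log2 scale with SE 0.040, adjusted p = 0.0118 in edgeR). It was at 0.026 in sgAAVS1 and −0.018 in sgIGF2BP3 cells after Dox (adjusted p = 0.72 and 0.88). The difference of its Dox effect in sgIGF2BP2 cells from that in sgAAVS1 cells was not called. With siControl against the same DMSO libraries RPL35A was lower too, at −0.11 (edgeR adjusted p = 0.0450), with overlapping libraries. RPL6 on chromosome 12 was at 1107, 1088, 1125 and 1118 CPM with DMSO and 1006, 1036, 1025 and 1017 CPM with Dox. Its Dox and DMSO libraries did not overlap, and it fell by 0.12 (SE 0.033, edgeR adjusted p = 0.00559). The rises of RPL13A (0.11, adjusted p = 0.0317) and RPS19 (0.11, adjusted p = 0.0474) had overlapping libraries, and RPL13A was highest, at 3017 CPM, in the Dox library that stands apart. Without that library 1 member was higher and 3 were lower, and without DMSO replicate 3 or 4 the count was 3. With size factors of relative log expression in place of TMM the split was 2 higher and 3 lower. The falls of RPL35A and RPL6 remained without that library, at −0.13 each (adjusted p = 0.0192 and 0.00543).

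**Figure D3:**
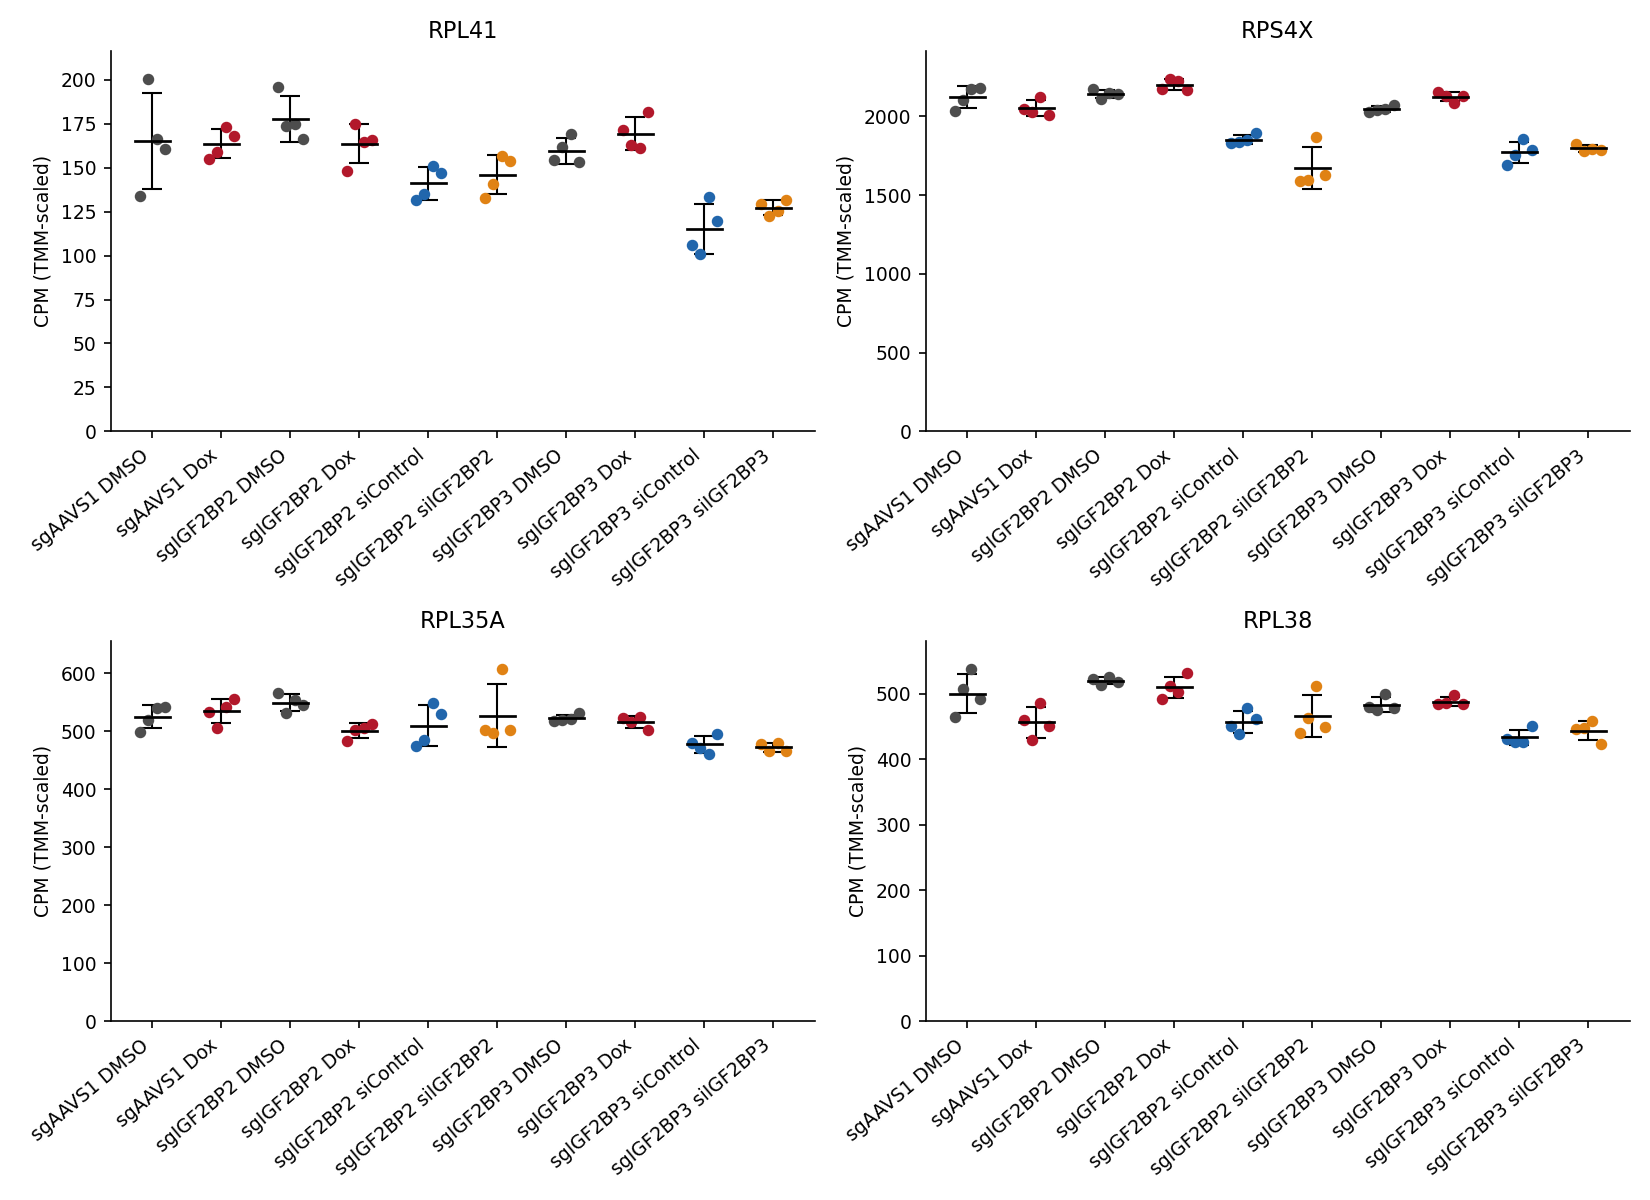
CPM (vertical axes, from 0) of RPL41, RPS4X, RPL35A and RPL38 in the 40 libraries by group (horizontal axes). Points are libraries (grey DMSO, red Dox, blue siControl, orange siIGF2BP2 or siIGF2BP3), with means and SDs (n = 4); RPL41 and RPS4X are lower in all siControl libraries than in DMSO libraries of the same line, RPL35A is lower with Dox in sgIGF2BP2 cells, and RPL38 with Dox in sgAAVS1 cells, where its libraries overlap.

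Dox in sgIGF2BP3 cells called RPS27L higher and no other member, with 2.64% of all genes called, 1.64% higher and 1.01% lower. Without a called change of their own there, RPLP0 and RPLP1 differed from sgAAVS1 cells. They were the 2 members called of 80 in the difference of the Dox effects, where 7.78% of all genes were called, 4.53% higher and 3.25% lower. RPLP0 was at 2559, 2563, 2548 and 2509 CPM with DMSO and 2644, 2589, 2603 and 2648 CPM with Dox, and its effect exceeded that in sgAAVS1 cells by 0.16 (SE 0.049, edgeR adjusted p = 0.0308). RPLP1 went from 1704, 1650, 1715 and 1659 CPM to 1815, 1759, 1699 and 1902 CPM, with a difference of 0.21 (SE 0.057, edgeR adjusted p = 0.0151). In both genes part of the difference is the fall in sgAAVS1 cells given above. The median difference was 0.083 over the members and −0.00098 over all genes, and 64 of 80 lay above 0. The count ran from 0 to 7 in fits without 1 library, so these 2 calls rest on single libraries. It was 0 without the second sgAAVS1 DMSO or the fourth sgIGF2BP3 Dox replicate, and 7 without the fourth sgAAVS1 DMSO replicate.

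The siRNA against IGF2BP2 went with calls in 36.8% of all genes and in 11 of 80 members. RPS27L, RPS27, RPL23A, RPS7, RPSA, RPS20, RPL13A, RPL15 and RPLP0 were higher, 9 of 80 where 18.4% of all genes were, and RPS4X and RPL7L1 were lower, 2 of 80 where 18.4% were. With size factors of relative log expression the split was 7 and 3. This result turned on the library that stands apart: without the third siIGF2BP2 replicate 2 members were higher and 8 lower, and the median went from 0.040 to −0.022. In that fit 16.4% of all genes were higher and 17.4% lower. Without the first siIGF2BP2 replicate 21 members were called, where 3939 of 11465 genes were. With an offset for transcript length 4 members were higher and 16 lower, where 2018 and 2248 of 11428 genes were. The direction of the group thus changed with the library and with the offset, and the rises of RPS27L and RPS27 and the fall of RPL7L1 were still called without that library.

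RPS27 (ENSG00000177954, chromosome 1) was at 476, 512, 520 and 498 CPM with siControl and at 530, 562, 629 and 552 CPM with siIGF2BP2, without overlap. Its rise was 0.18 (SE 0.041, edgeR adjusted p = 0.000291) and 0.13 without the library that stands apart (adjusted p = 0.00857), but with the length offset it was 0.082 (adjusted p = 0.0857). RPL7L1, a copy of RPL7, was at 165, 174, 167 and 170 CPM with siControl and 160, 153, 162 and 150 CPM with siIGF2BP2. It fell by 0.11 (SE 0.036, edgeR adjusted p = 0.00964) and by 0.13 without that library (adjusted p = 0.00422), but its call was lost without the fourth siIGF2BP2 replicate (adjusted p = 0.0553). RPS4X was at 1590, 1593 and 1629 CPM in 3 siIGF2BP2 libraries and at 1866 CPM in the library that stands apart, against 1830 to 1892 CPM with siControl. RPS4X fell by 0.15 (SE 0.034, edgeR adjusted p = 0.000304), with overlap through that library. RPL15 rose by 0.082 (adjusted p = 0.0362), and was at 0.043 without that library (adjusted p = 0.28).

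The siRNA against IGF2BP3 called RPS27L higher and no other member, where 2.34% of all genes were called, 0.936% higher and 1.40% lower. The count was 2 without siControl replicate 2. The median member was at 0.0074. The effects of the 2 siRNAs differed in 4 members, with 3 lower (where 8.82% of all genes were) and 1 higher (where 9.88% were) in siIGF2BP3 minus siIGF2BP2. RPL26L1, a copy of RPL26, was at 45.1, 41.3, 44.7 and 43.7 CPM with siControl and 39.0, 37.5, 40.3 and 38.1 CPM with siIGF2BP3. In sgIGF2BP2 cells it was at 40.5, 43.9, 44.6 and 43.4 CPM with siControl and 40.5, 44.0, 49.2 and 42.9 CPM with siIGF2BP2. The difference of −0.21 (SE 0.073, edgeR adjusted p = 0.0328) was −0.15 without the library that stands apart (adjusted p = 0.14). RPL13A differed by −0.14 (adjusted p = 0.0415) and RPS4X by 0.17 (adjusted p = 0.00757). Without that library 3 members were higher and 0 lower. The count fell to 1 or 2 without any of 8 other libraries and rose to 7 without siIGF2BP2 replicate 1.

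The copies were measured beside their partners. RPL22L1 and RPL22 can each occupy the same place on the large subunit. By these counts the copy was the more abundant. It stood at 169 CPM per kb on average and RPL22 at 35.1, a ratio of 4.26 to 5.47 over the 40 libraries. The ratio was lowest in sgIGF2BP2 siControl (mean 4.48) and highest in sgIGF2BP2 Dox (mean 5.18). RPL22 has 22 named pseudogenes and shares strand and bases with AL031847.2 (at most 2 counts), while RPL22L1 has 0 such pseudogenes. RPL26, with 14 named pseudogenes, likewise overlaps AC135178.2 (0 counts). What shared reads did to the ratios of copies to partners was not tested. RPL22L1 fell by 0.22 with siControl against DMSO in sgIGF2BP3 cells (SE 0.042, edgeR adjusted p = 4.92e-05), from 383, 380, 399 and 415 CPM to 343, 332, 318 and 360 CPM. In sgIGF2BP2 cells it fell by 0.16 (edgeR adjusted p = 0.00260), also without overlap. RPL26L1 fell by 0.18 with siControl in sgIGF2BP2 cells (edgeR adjusted p = 0.00602). It was not called in sgIGF2BP3 cells (−0.077, adjusted p = 0.31). RPL26L1 stood at 0.135 to 0.206 times RPL26 per kb and RPL7L1 at 0.0245 to 0.0310 times RPL7. RPL3 stood at 1814 and RPL10 at 515 CPM per kb, while their copies RPL3L and RPL10L were at or near 0, as was RPL39L beside RPL39 at 42.3 CPM per kb.

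Other genes of ribosome supply were read from lists in the same fit. A list of 4 genes, FAU and RACK1 among them, encodes ribosomal proteins under other names. With Dox in sgAAVS1 cells 3 of these 4 were lower, where 8.68% of all genes were, with RACK1 at −0.11 and FAU at −0.11. With siControl against DMSO 2 of the 4 were lower in sgIGF2BP2 and 1 in sgIGF2BP3 cells, where 8.16% and 8.54% of all genes were, and FAU was lower in both (−0.19 and −0.14). Of 19 tested elongation factors and other TOP mRNAs, 6 and 8 were lower and 0 higher with siControl in sgIGF2BP2 and sgIGF2BP3 cells, with medians of −0.076 and −0.081, against the same 8.16% and 8.54% of all genes lower. NPM1, a nucleolar chaperone, fell by 0.18 and 0.15 there, and HNRNPA1 by 0.13 and 0.18. After Dox in sgAAVS1 cells 4 of these 19 were lower, among them EEF2, the translocation factor, at 4566 ± 39.8 against 4939 ± 168 CPM (SD, n = 4). After Dox in sgIGF2BP2 cells 1 was higher and 4 lower, and 1 and 5 without the library that stands apart, where 10.0% and 10.4% of all genes were called.

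Of 14 regulators of TOP mRNAs, 3 were higher and 1 lower with siControl in sgIGF2BP2 cells, where 10.2% and 8.16% of all genes were. In sgIGF2BP3 cells 4 were higher and 2 lower, where 10.9% and 8.54% were. EIF4EBP2, a translation repressor under mTOR, rose by 0.25 in both lines, and TSC1, a brake on mTOR, by 0.22 and 0.33. With siIGF2BP2 4 of 14 were lower and 0 higher, where 18.4% of all genes were in each direction, and 5 lower and 1 higher without the library that stands apart. Among those lower, RPS6KB1, the S6 kinase, fell by 0.56, LARP1 by 0.17 and CNBP by 0.14. RPTOR, the mTOR partner, fell by 0.28 with Dox in sgAAVS1 cells (edgeR adjusted p = 5.68e-07), and EIF4EBP1 by 0.20 there and by 0.23 in sgIGF2BP2 cells. Of all genes 8.68% and 10.4% were lower with Dox in these lines, and the counts of the 14 are not given here.

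Of 38 ribosome assembly factors, 23 were lower and 1 higher with siIGF2BP2, where 18.4% of all genes were called in each direction. Their median was −0.13. Without the library that stands apart 23 were lower and 0 higher, with a median of −0.15. MRTO4, which helps to place the P stalk, was at 88.9 ± 5.34 against 150 ± 6.64 CPM with siControl (SD, n = 4), a change of −0.76 on the log2 scale (SE 0.038, adjusted p in edgeR = 1.61e-26). UTP20, of the small-subunit processome, fell by 0.60 and NMD3, an export adaptor of the large subunit, by 0.51. With siIGF2BP3 0 of the 38 were called in either direction, where 2.34% of all genes were. Dox went with 12 lower in sgAAVS1 cells, where 8.68% of all genes were. In sgIGF2BP2 cells 3 were higher and 9 lower (3 and 7 without the library that stands apart), where 10.0% and 10.4% were, and in sgIGF2BP3 cells 1 was higher and 1 lower, where 1.64% and 1.01% were. EIF6, which keeps the subunits apart, rose in the last 2 lines by 0.26 and 0.15. With siControl 15 and 5 were lower, where 8.16% and 8.54% of all genes were, and 1 was higher in each line. Of 12 tested genes of RNA polymerase I, which transcribes ribosomal RNA, 4 were lower with siIGF2BP2 (5 without the library that stands apart, and 18.4% of all genes), POLR1D at −0.50 and POLR1B at −0.28, and 0 with siIGF2BP3. With Dox 2 of the 12 were lower in sgAAVS1 cells, where 8.68% of all genes were. In sgIGF2BP2 and sgIGF2BP3 cells 0 were lower with Dox, where 10.4% and 1.01% were. With siControl 3 were lower in each line, where 8.16% and 8.54% were.

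No member was called between the uninduced lines. Against sgAAVS1 cells with DMSO, 0 members were called in sgIGF2BP2 and 0 in sgIGF2BP3 cells by edgeR, where 0.0175% of all genes were called in each. DESeq2 called 0 too, and 1 and 6 members had an unadjusted p under 0.05. Groups did not overlap in 2 and 4 members, against 2.97% and 5.93% of all genes. The medians were 0.017 and −0.041, with 59 members above 0 in the first and 71 below 0 in the second.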

How the data were processed

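Poly(A) RNA of 40 libraries was sequenced after s4U labelling and alkylation, per the labels' protocols. Reads were aligned with STAR 2.7.5c to hg38 after bcl2fastq 2.20.0.422, per the submitters' processing notes. The deposited file holds raw counts per Ensembl gene, as the authors made them; the counting tool, annotation and strand setting are not given in the sources used here. Names and lengths came from GENCODE release 29 (19847 of 19962 identifiers). Start windows and promoters are RefSeq's on GRCh38.p14.

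edgeR 4.0.16 (R 4.3.3) fitted all 40 libraries with 1 coefficient per group, TMM scaling and filterByExpr, and tested 12 comparisons by quasi-likelihood with Benjamini-Hochberg adjustment over 11428 genes at 0.05. CPM used TMM-scaled library sizes, with no log offset. The fit was tested on simulated data. Alternatives were DESeq2 1.42.0, RLE scaling, no filter, the compared libraries alone, a 1.2-fold minimum change, a length offset, a replicate block and each library left out. Gene lists were recounted without the libraries that stand apart, a choice made after seeing the data.

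Named members were up to 4 rises and 4 falls per comparison among called members whose libraries did not overlap, the near copies, the highest and lowest by level, and members beyond a cut site. Other lists gave up to 3 called genes each. Further called members were named after their values were seen. Members and lists were chosen with earlier results of these data known. The results of some members and list genes are not reported here.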

Additional observations from a re-analysis of the deposited data

Results flagged for a closer look

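Screened were 66 sets of 4 values: CPM of named members in a group, and the share of counts in members in each of the 10 groups. In 2 sets, both of CPM, a library lay far from the other 3 of its group, and chance alone flags some sets of this size. No share was flagged, those of the 2 libraries that stand apart included. RPL15 was at 1096 CPM in the third siIGF2BP2 replicate of sgIGF2BP2 cells, the library with the high member share, while the other 3 stood at 988 to 994 CPM. RPS25 was at 273 CPM in the second DMSO replicate of sgIGF2BP2 cells, while the other 3 stood at 282 to 284 CPM.

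Effects that differed between lines by a test of the difference in edgeR were these. For Dox in sgIGF2BP2 minus sgAAVS1 cells, RPS27L differed by 0.40 on the log2 scale. For Dox in sgIGF2BP3 minus sgAAVS1 cells, RPLP0 differed by 0.16 and RPLP1 by 0.21. For siIGF2BP3 minus siIGF2BP2, RPL13A differed by −0.14, RPL26L1 by −0.21 and RPS4X by 0.17.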

How the results depend on the processing

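Counts of called members moved by more than 1.5 times under these settings, and the cause was not tested. Fitting only the libraries compared called 19 members for Dox in sgAAVS1 cells, 3 for Dox in sgIGF2BP2 and 7 in sgIGF2BP3 cells, 6 for siIGF2BP2, 3 for siIGF2BP3, and 2 and 10 for the differences of the Dox effects from sgAAVS1 cells (sgIGF2BP2, sgIGF2BP3). Of the 11067 to 11293 genes tested in these fits, 1887, 1849, 477, 3773, 465, 576 and 1062 were called, in the same order. Against a minimum change of 1.2-fold the counts of members were 0, 1 and 0 for Dox (sgAAVS1, sgIGF2BP2, sgIGF2BP3), 0 for each targeting siRNA and each difference, and 0 and 1 for siControl. Of 11428 genes, 50, 117 and 8 were called for Dox there, and 512 and 16 for siIGF2BP2 and siIGF2BP3. Counts of all genes for siControl and for the differences are not given here. With a length offset the counts of members were 16 for Dox in sgAAVS1 and 2 in sgIGF2BP3 cells, 20 for siIGF2BP2, 2 for siIGF2BP3, 4 and 5 for the Dox differences, 9 for the siRNA difference (9 higher, 0 lower) and 19 for siControl in sgIGF2BP2 cells. For the Dox, siRNA and Dox-difference fits among these, 1966, 388, 4266, 313, 913 and 1049 of 11428 genes were called. Those for siControl and for the siRNA difference are not given here. The offset put the siControl medians at −0.052 and −0.052, and that of sgIGF2BP3 against sgAAVS1 cells at −0.0077. Without the low-count filter the counts of members were 2 (Dox, sgIGF2BP3), 3 (siIGF2BP3) and 3 (Dox difference, sgIGF2BP2), where 371, 276 and 831 of 15837 genes were called. DESeq2 called 5 members for the Dox difference of sgIGF2BP3, where it called 1006 of 15837 genes.

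Leaving out each library gave 2 to 13 calls of members for Dox in sgAAVS1, 3 to 6 in sgIGF2BP2 and 0 to 1 in sgIGF2BP3 cells, 8 to 21 for siIGF2BP2, 0 to 2 for siIGF2BP3, 1 to 3 and 0 to 7 for the Dox differences, 1 to 7 for the siRNA difference, and 27 to 44 and 20 to 30 for siControl. Of all genes, 1293 to 2002, 1857 to 2180 and 108 to 285 were called for Dox. For siIGF2BP2 and siIGF2BP3 these were 3653 to 3939 and 179 to 222. Counts of all genes for siControl and for the differences are not given for these fits, so those ranges describe the members only. The median of the siRNA difference ran from −0.045 to 0.040, and the siControl medians from −0.13 to −0.10 and −0.097 to −0.076.

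No same-number correlation of deviations was over 0.1 in any comparison, so the numbers were not taken as pairs, although in siControl against DMSO in sgIGF2BP2 cells (0.044 to 0.092) and sgIGF2BP3 against sgAAVS1 cells with DMSO (0.022 to 0.097) each library correlated best with its own number. The replicate block called 17 members for siIGF2BP2, 2 for siIGF2BP3, and 2 and 6 for the Dox differences, where 4293, 291, 879 and 986 of 11428 genes were called.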

Other observations

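The effects of the siRNAs differed on a number of ribosome assembly factors. In siIGF2BP3 minus siIGF2BP2, 13 of 38 assembly factors were higher and 1 lower in edgeR, with a median of 0.12, where 9.88% of all genes were called higher and 8.82% lower. Without the siIGF2BP2 library that stands apart 14 were higher and 0 lower. In the same difference 3 of 12 genes of RNA polymerase I were higher and 0 lower, with and without that library. The Dox effect on the p53 list was larger in sgIGF2BP2 than in sgAAVS1 cells for 7 of 10 genes, with a median difference of 0.36, where 4.01% of all genes were called higher. The count was again 7 without the sgIGF2BP2 Dox library that stands apart. For sgIGF2BP3 minus sgAAVS1 cells 1 of 10 was higher and 1 lower, where 4.53% and 3.25% of all genes were.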
